A study of Mus musculus with 20 samples.

Results

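Livers of XY-Sry mice were compared with livers of XX mice over the autosomal genes of a 2-colour expression array. The comparison took the 5 arrays labelled XY-Sry and the 5 labelled XX, 10 of the 20 arrays of the series, and 10614 autosomal genes named by 1 symbol, out of 21556 features measured. The mice came from the FCG cross (core genotypes) on C57BL/6J, in which the Y chromosome has lost the testis-determining gene Sry (written Y-) and an Sry transgene sits on an autosome instead. XY-Sry mice carry this Y chromosome and the transgene and develop testes. XX mice carry neither and develop ovaries. The other 10 arrays held XX Sry livers (XX with the transgene, testes) and XY- livers (the altered Y chromosome without the transgene, ovaries), 5 of each. XY-Sry against XX is the pairing closest to ordinary males and females, and within it gonadal type, the transgene and the sex chromosomes cannot be told apart. All 20 animals ate a chow with 4% fat, were gonadectomized at 8 weeks of age, and were killed at 12 weeks after a 12 h fast. No group therefore had gonads in its last 4 weeks, and the labels name no hormone given afterwards. The transgene is a single insertion that every Sry-bearing mouse shares.

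Liver is among the organs in which adult male and female mice differ most in gene expression. The pattern of growth hormone release, pulsatile in males and nearly continuous in females, is set by gonadal hormones and read in hepatocytes through the kinases and transcription factors of the JAK2 and STAT5 pathway. Cyp2d9, Cyp4a12a, Hsd3b5 and Elovl3 are classical male-biased liver genes, and the sulfotransferases Sult2a1 and Sult3a1, A1bg and Hao2 are classical female-biased ones. Liver also holds resident macrophages (Kupffer cells), T cells and natural killer cells, whose transcripts are measured with those of the hepatocytes in whole tissue.

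The promoter bases just before the transcription start are shown for A1bg, the female-biased gene with the largest difference that has an entry in the RefSeq promoter table, for Cyp2d9, the male-biased gene with the largest difference, and for Cxcl9, the interferon-induced gene with the largest difference. Each sequence is the 250 bases before the start, 5′ to 3′ on the strand of the gene, in GRCm38.p6. A1bg lies on the minus strand of chromosome 15 (chr15:60921271-60921520), Cyp2d9 on the plus strand of chromosome 15 (chr15:82452127-82452376), and Cxcl9 on the minus strand of chromosome 5 (chr5:92328080-92328329). Capitals mark matches, on either strand, to the STAT motif TTCNNNGAA or to the core ATTGAT that HNF6 and CUX2 bind.
A1bg: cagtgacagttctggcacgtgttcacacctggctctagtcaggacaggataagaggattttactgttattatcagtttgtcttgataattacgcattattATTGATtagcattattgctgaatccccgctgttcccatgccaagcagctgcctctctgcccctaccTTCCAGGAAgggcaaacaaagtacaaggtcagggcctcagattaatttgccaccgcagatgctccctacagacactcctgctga
Cyp2d9: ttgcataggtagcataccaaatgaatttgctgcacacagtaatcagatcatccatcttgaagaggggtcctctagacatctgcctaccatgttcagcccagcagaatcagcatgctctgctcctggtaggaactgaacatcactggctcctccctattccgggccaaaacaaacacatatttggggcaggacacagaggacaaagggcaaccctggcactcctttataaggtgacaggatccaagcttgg
Cxcl9: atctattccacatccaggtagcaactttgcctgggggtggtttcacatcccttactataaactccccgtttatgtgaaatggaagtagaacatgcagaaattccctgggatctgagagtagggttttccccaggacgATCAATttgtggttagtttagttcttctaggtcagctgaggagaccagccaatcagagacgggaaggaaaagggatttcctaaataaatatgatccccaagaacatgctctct
The STAT match TTCCAGGAA in the A1bg window spans bases 84 to 76 before the start, and its ATTGAT match spans bases 150 to 145. The Cxcl9 window holds ATCAAT, the opposite strand of the core, at bases 113 to 108 before its start. The Cyp2d9 window holds neither set of letters, and the matches printed do not overlap. Of 32851 RefSeq promoters of this length, 7.02% hold the STAT motif and 6.72% hold the core, so these matches are descriptions of the letters and not evidence of binding. Of the 78 genes called below, 58 had a promoter entry.

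Each array gave, for every gene, the ratio of 1 liver (Cy5) to a common liver RNA pool (Cy3), used here as a log2 ratio. The pool is described both as liver of 17 chow-fed mice and as equal portions of the samples' RNA, and these descriptions were not reconciled here. The spread of the autosomal log2 ratios (their SD over genes) ran from 0.192 to 0.352 over the 10 arrays, and the arrays of XX animals 6 and 2 were the widest at 0.352 and 0.328. Correlations between arrays over autosomal genes ran from -0.0375 to 0.532 among the 10 pairs of XY-Sry arrays, from -0.227 to 0.33 among the 10 pairs of XX arrays, and from -0.505 to 0.202 between the groups. Of the 25 pairs between the groups 1 lay below -0.3. The labels put every liver in the same dye, and the arrays were all read in the same direction. Correlations between groups that differ cannot decide the direction of an array. That the ratio is liver over pool was judged from the Y-linked genes, not from a stated formula. The Y-linked Eif2s3y read 0.73 to 1.34 in XY-Sry and -4.42 to -2.46 in XX, which fits the labels of all 10 arrays. The array labelled XY- 30 read -3.90 for Eif2s3y while the other XY- arrays read 0.57 to 0.63, so it goes against its label; it is not among the 10 arrays and enters only the estimate of spread and the swapped pairing described later.

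In all, 78 autosomal genes differed between XY-Sry and XX livers, and 65 of them were lower in XY-Sry. Among the lower genes were 4 sulfotransferases (C730007P19Rik, Sult2a1, Sult3a1, Sult5a1), 5 listed markers of T cells and natural killer cells (Il2rb and Cd2 among them) and 3 listed interferon-induced genes (Cxcl9, Gbp2b, Psmb9). Most of the 65 lower genes, such as Dct, Inmt and Plaat3, belonged to none of these. The few higher genes were led by Lpin1, which makes diacylglycerol and also acts as a transcriptional coactivator, and by the male-biased cytochrome Cyp2d9. The test was limma's, with the spread of each gene estimated from all 20 arrays and p-values adjusted by Benjamini-Hochberg over all 21556 features; a gene with an adjusted p under 0.05 is said to be called. Of 10614 autosomal genes 78 (0.735%) were called, 13 higher (0.122%) and 65 lower (0.612%) in XY-Sry. The median size of the difference was 0.68 on the log2 scale over the 78 genes and 0.0829 over all autosomal genes, whose median signed difference was 0.01. A change of at least 2-fold was reached by 21 of the 78, 3 higher and 18 lower. The 5 XY-Sry values did not overlap the 5 XX values in 69 of the 78 genes, and in 322 of all autosomal genes (3.03%), 82 higher (0.773%) and 240 lower (2.26%). The count depended on single arrays: it ran from 33 (without XY-Sry 19) to 99 (without XX 29), with 35 without XX 2, 46 without XY-Sry 20, 48 without XX 21, 49 without XY-Sry 27 and 50 without XY-Sry 5, and it was 30 without both XX 2 and XX 6.

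**Figure D1:**
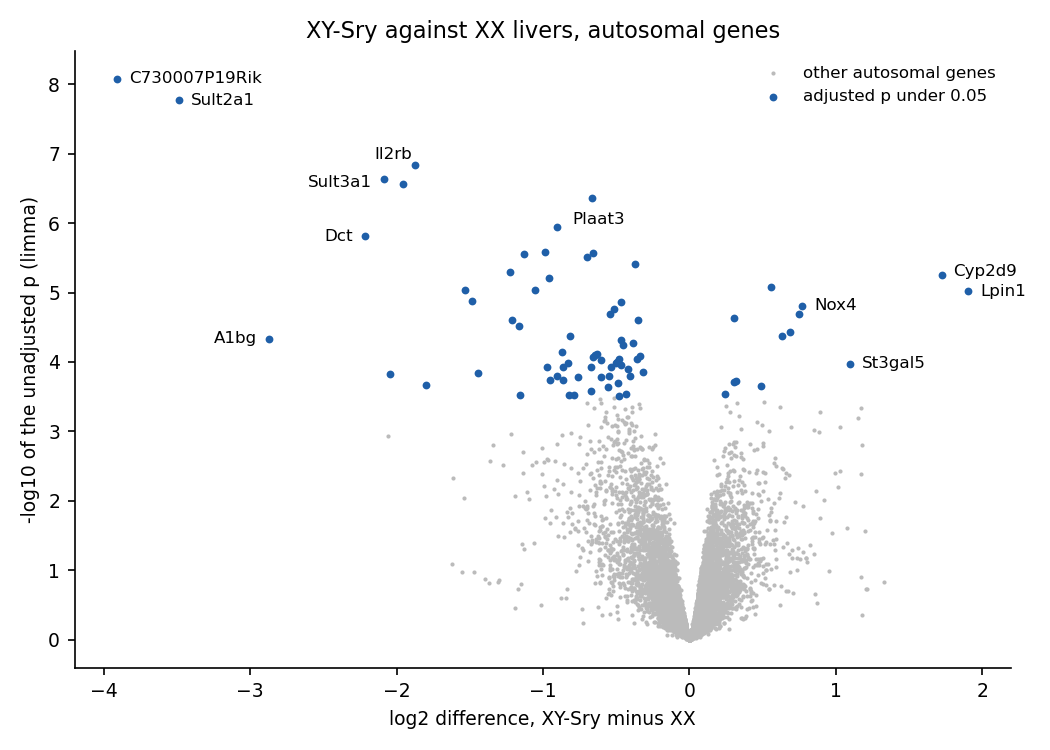
Log2 difference (XY-Sry minus XX, 5 livers per group) against -log10 of the unadjusted limma p for each of the 10614 autosomal genes. Filled points mark the 78 genes past an adjusted p of 0.05, of which 65 lie to the left of 0; C730007P19Rik and Sult2a1 stand apart at the far left, and Lpin1 and Cyp2d9 at the far right.

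Of the 78 genes 30 were called in every one of the 10 fits that left out 1 of the 10 arrays, 6 higher and 24 lower. The higher ones were Lpin1, Cyp2d9, Nox4, Ankhd1, Serinc3 and Slc4a1ap. The lower ones included C730007P19Rik, Sult2a1, Sult3a1, Dct, Inmt, Il2rb, Cd2, Cd3g, Tbx21, Psmb9 and Trav9d-3. All 78 kept their direction when XX 2 and XX 6 were both left out, with a median size of 0.62, and 23 of them were still called.

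The cytosolic sulfotransferases, which conjugate sulfate to steroids, bile acids and amines, held the 2 largest differences. C730007P19Rik, now named Sult2a2, was 15-fold lower in XY-Sry and Sult2a1 was 11.2-fold lower. Sult3a1 was 4.25-fold lower and Sult5a1 1.83-fold lower. Of 40 measured members of the list of phase 2 conjugation enzymes, these 4 were called and all were lower, beside 0.612% of all autosomal genes. The list's median difference was -0.12.

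C730007P19Rik read -3.23, -3.64, -3.25, -3.81 and -2.14 in XY-Sry animals 19, 27, 20, 5 and 14, and 1.39, 1.32, 0.68, -0.07 and 0.13 in XX animals 29, 6, 21, 35 and 2 (log2 ratio of liver to pool; animals are given in this order throughout). The lowest XX liver lay more than 2 log2 units above the highest XY-Sry liver, XY-Sry 14. The difference was -3.91 ± 0.40 (SE of the difference, as after every difference here, n = 5 per group) with a limma adjusted p of 0.00018, and its 4 probes gave -4.80, -4.05, -3.53 and -3.25. Sult2a1 read -2.78, -3.12, -3.03, -2.97 and -1.90 in XY-Sry and 1.54, 1.497, 0.60, -0.03 and 0.02 in XX. XX 29 and XX 6 were the highest and XX 35 and XX 2 the lowest of the XX livers for both genes, and no XX liver reached the XY-Sry range. The difference of Sult2a1 was -3.49 ± 0.37 (SE), limma adjusted p 0.000184. Genes of the Sult2a cluster on chromosome 7 are close copies of each other, so a probe of one may also have caught another, and the 2 symbols are not independent results.

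Sult3a1, on chromosome 10, was nearly constant in XY-Sry at -1.53, -1.51, -1.56, -1.46 and -1.40, and read 1.66, 0.51, 0.18, 0.11 and 0.52 in XX. The XY-Sry livers lay far below every XX liver, and XX 29 was far above the other XX livers. The difference was -2.09 ± 0.27 (SE), limma adjusted p 0.00118, and its 2 probes gave -2.59 and -1.59. Sult5a1 read -0.76, -0.40, -0.70, -0.05 and -0.03 in XY-Sry and 0.42, 0.62, 0.05, 0.45 and 0.87 in XX, where the lowest XX liver (XX 21) lay only just above the highest XY-Sry liver. Its difference was -0.87 ± 0.17 (SE), limma adjusted p 0.0243. The call of Sult5a1 was lost in 5 of the 10 fits that left out 1 array (without XY-Sry 19, 27 or 20, or XX 6 or 2), with an adjusted p of up to 0.0959.

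**Figure D2:**
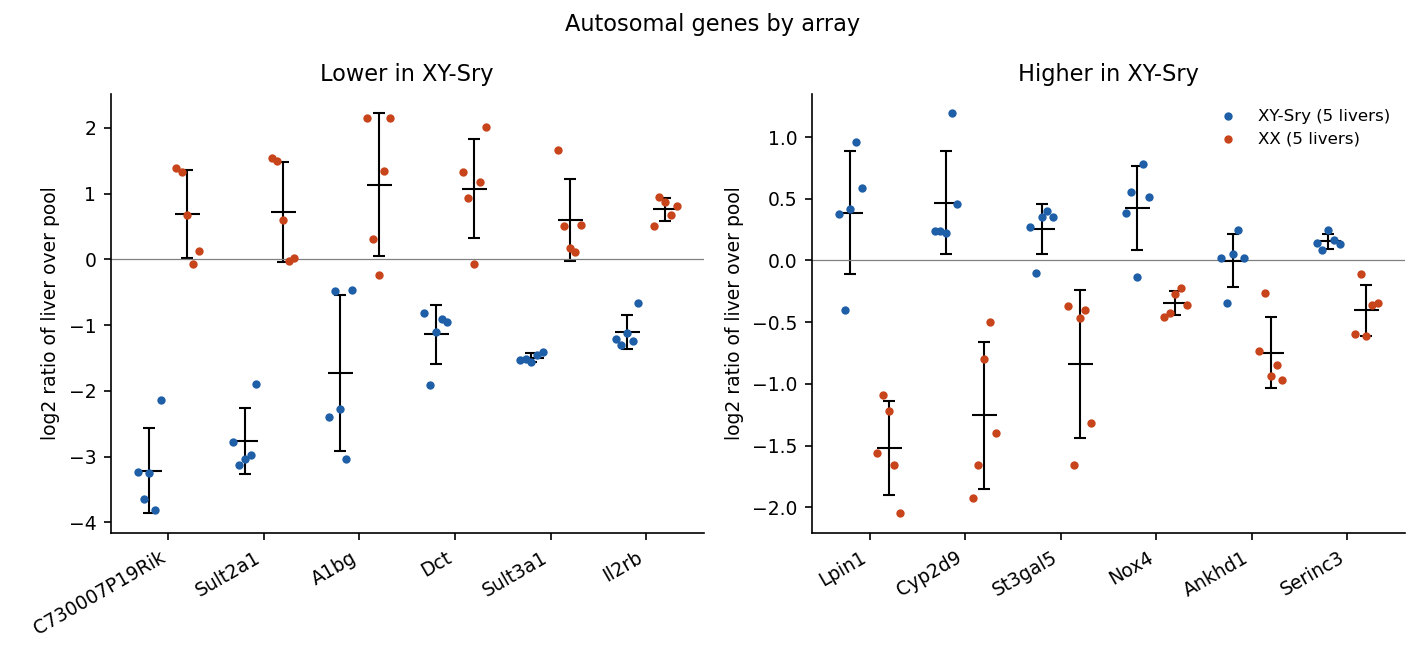
Log2 ratio of liver to pool for each of the 5 XY-Sry and 5 XX livers, for 6 genes lower (left) and 6 genes higher (right) in XY-Sry; bars give the mean and SD of each group. The XY-Sry and XX points do not overlap in 11 of the 12 genes, and Ankhd1 is the exception.

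A1bg, a plasma glycoprotein gene whose promoter is printed above, was 7.32-fold lower in XY-Sry. It read -2.40, -0.48, -2.28, -3.04 and -0.46 in XY-Sry and 2.14, 0.30, -0.24, 1.34 and 2.15 in XX. Both groups were wide: XY-Sry 27 and 14 lay near the lowest XX livers, XX 21 and XX 6, although the groups did not overlap. The difference was -2.87 ± 0.55 (SE), limma adjusted p 0.0181, and its call was lost in 4 of the 10 fits that left out 1 array (without XY-Sry 19, 20 or 5, or XX 2; adjusted p up to 0.0737 and log2 difference from -3.22 to -2.54). Hao2, a peroxisomal hydroxyacid oxidase, read -0.19, -0.64, -0.80, -1.60 and -1.88 in XY-Sry and 1.55, 0.95, 0.83, 0.19 and 1.68 in XX. Its groups did not overlap either, but the difference of -2.06 ± 0.54 (SE) had a limma adjusted p of 0.101 and was not called.

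Dct, the dopachrome tautomerase gene of the melanin pathway on chromosome 14, read -0.81, -1.92, -1.10, -0.90 and -0.95 in XY-Sry and 1.34, 0.93, -0.07, 1.18 and 2.01 in XX. XX 21 was the low XX liver, and it still lay above the highest XY-Sry liver, XY-Sry 19. The difference was -2.21 ± 0.32 (SE), limma adjusted p 0.00301. Inmt, which methylates indoles and thioethers, read -0.99, -0.82, -0.91, -0.41 and 0.25 in XY-Sry and 0.24, 1.05, 0.76, 1.03 and 1.44 in XX. XY-Sry 14 and XX 29 touched at about 0.25, so the groups overlapped by this 1 pair. The difference of Inmt was -1.48 ± 0.25 (SE), limma adjusted p 0.00802. Hsd3b2, a 3-beta-hydroxysteroid dehydrogenase, differed by -1.44 ± 0.30 (SE), limma adjusted p 0.0361, with XY-Sry between -0.96 and -0.25 and XX between 0.32 and 1.68. XX 6 and XX 2 were the 2 high XX livers for Hsd3b2, its difference was -0.97 (adjusted p 0.236) without them, and its call was also lost without any 1 of XY-Sry 19, 27, 20 or 5, XX 6 or XX 2 (adjusted p up to 0.122).

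Among the 13 higher genes, Lpin1, on chromosome 12, differed most. It read 0.38, -0.40, 0.42, 0.96 and 0.59 in XY-Sry and -1.56, -1.09, -1.22, -1.66 and -2.05 in XX. All XX livers were at -1.09 or below, and the lowest XY-Sry liver, XY-Sry 27, was at -0.40. The difference was 1.90 ± 0.32 (SE), or 3.74-fold, limma adjusted p 0.00644. Cyp2d9, a male-biased cytochrome P450 that hydroxylates testosterone, read 0.24, 0.24, 0.22, 1.19 and 0.46 in XY-Sry and -1.93, -1.65, -0.80, -0.49 and -1.39 in XX. XY-Sry 5 stood well above the other XY-Sry livers, which lay between 0.22 and 0.46. The difference was 1.72 ± 0.28 (SE), or 3.30-fold, limma adjusted p 0.00509, and Cyp2d9 belongs to a cluster of similar genes on chromosome 15 whose transcripts the probe may share.

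St3gal5, which makes the ganglioside GM3, read 0.27, -0.10, 0.35, 0.40 and 0.35 in XY-Sry and -0.37, -1.65, -0.46, -0.40 and -1.31 in XX. XX 6 and XX 2 were the 2 low XX livers, and the difference was 1.09 ± 0.22 (SE), limma adjusted p 0.0302. It was 0.67 (adjusted p 0.159) without those arrays, and the call was lost without any 1 of XY-Sry 19, 20, 5 or 14, XX 6 or XX 2 (adjusted p up to 0.0942, without XX 2). Nox4, an NADPH oxidase that releases hydrogen peroxide, read 0.39, 0.56, -0.13, 0.78 and 0.52 in XY-Sry and -0.46, -0.42, -0.27, -0.22 and -0.36 in XX. XX livers lay close together and only XY-Sry 20 came near them. The difference of Nox4 was 0.77 ± 0.13 (SE), limma adjusted p 0.00877. Ankhd1, an ankyrin repeat protein, rose by 0.75 as the mean of 2 probes that disagreed, at 0.08 and 1.42.

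The remaining 8 higher genes had smaller differences. Lor (loricrin), the epidermal envelope protein, was higher by 0.69, the phosphodiesterase Gde1 by 0.63, the membrane protein Serinc3 by 0.56 and Dcaf13 by 0.49. The drug efflux pump gene Abcb1b was higher by 0.32, and Gm4879, Slc4a1ap and the enkephalin precursor Penk by 0.30, 0.30 and 0.24. Adjusted p-values from limma were 0.0156 for Lor, 0.0169 for Gde1, 0.00638 for Serinc3 and 0.0112 for Slc4a1ap, and from 0.0398 to 0.0488 for Dcaf13, Abcb1b, Gm4879 and Penk. Abcb1b and Penk lost their call in all 10 fits that left out 1 array, Dcaf13 in 8 and Gm4879 in 7 of them, with adjusted p-values of up to 0.107, 0.113, 0.148 and 0.128. Lor lost its call without XY-Sry 19 (adjusted p 0.0676) and Gde1 without XX 2 (adjusted p 0.0575).

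Most genes usually described as sex-biased in liver did not pass the test. Of 25 measured male-biased genes, Cyp2d9 and Nox4 were called higher and none lower, with a median difference of 0.03 against 0.01 for all autosomal genes. Of 32 measured female-biased genes, C730007P19Rik, Sult2a1, Sult3a1 and A1bg were called lower and none higher, with a median of -0.09. Over all autosomal genes 0.122% were called higher and 0.612% lower. The mean log2 ratio over the 32 female-biased genes ran from -0.47 to -0.25 in XY-Sry and from -0.09 to 0.34 in XX, without overlap. That mean includes the 4 called genes, which had the largest differences of the list, and it was not taken without them. It therefore does not show a shift of the whole list, in which 19 genes lay below 0 and 13 above. The lists were written with results of these data known, so the counts describe them and do not stand as independent evidence of direction.

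Several defining male-biased genes were not called. The arachidonic acid hydroxylase Cyp4a12a differed by 0.06 ± 0.11 (SE), the oxysterol hydroxylase Cyp7b1 by 0.30 ± 0.19 (SE), and the elongase Elovl3 by 0.45 ± 0.45 (SE). The ketosteroid reductase Hsd3b5 differed by -0.34 ± 0.16 (SE) and the organic anion transporter Slco1a1 by -0.20 ± 0.14 (SE). None of these 5 passed, with limma adjusted p-values from 0.423 for Hsd3b5 to 0.894 for Cyp4a12a. Elovl3 varied more within XY-Sry than between the groups, at -0.38, -0.77, -0.70, 2.42 and 0.44 in XY-Sry and 0.43, -0.83, 0.17, -0.33 and -0.70 in XX, with XY-Sry 5 highest. XY-Sry 5 was also highest for Cyp2d9. Nat8, an acetyltransferase of the male-biased list, differed by 1.17 ± 0.36 (SE) with a limma adjusted p of 0.169.

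Female-biased cytochromes did not pass either. Cyp2b9 differed by -0.23 ± 0.14 (SE), Cyp3a41a by -0.16 ± 0.37 (SE) and Cyp3a16 by -0.11 ± 0.36 (SE). The Cyp3a genes varied by more than 1 log2 unit among the livers of each group. Cyp2b13 read -0.29, -0.30, -0.28, -0.01 and -0.30 in XY-Sry and 0.27, 0.43, 0.45, 0.31 and 0.23 in XX, without overlap, and its difference of -0.58 ± 0.14 (SE) had a limma adjusted p of 0.0747. Fmo2, a flavin monooxygenase of the female-biased list, went the other way at 1.17 ± 0.28 (SE), limma adjusted p 0.0613, also without overlap. Cyp2b and Cyp3a genes have close copies that probes may share.

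No member of the growth hormone and STAT5 list passed, among 23 measured with a median of -0.08. Cux2, a female-specific repressor of male-biased genes, read 0.36, 0.40, 0.43, -0.56 and 0.38 in XY-Sry and -0.84, -0.61, -0.35, -0.40 and 0.14 in XX. XY-Sry 5 was low and the other 4 XY-Sry livers lay together, with XX 2 the high XX liver. The difference was 0.61 ± 0.21 (SE), limma adjusted p 0.245. Bcl6, the male-biased repressor that competes with STAT5, differed by 0.06 ± 0.08 (SE). Socs2, a STAT5 target that limits growth hormone signalling, differed by 0.97 ± 0.41 (SE), limma adjusted p 0.364, and Igf1, the hormone that growth hormone induces in liver, by 0.01.

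Steroid and aldehyde metabolism held few calls. Of 25 measured genes of steroid receptors and steroid metabolism, Hsd3b2 was lower and none higher (median 0.02). Fkbp5, a chaperone induced by glucocorticoids, differed by 1.18 ± 0.32 (SE), limma adjusted p 0.114, and Hsd17b2, which inactivates estradiol and testosterone, by -0.51 ± 0.12 (SE), limma adjusted p 0.0523. Of 23 flavin monooxygenases and aldehyde or alcohol dehydrogenases, Adh1, which oxidizes ethanol and retinol, was called lower and none higher (median -0.04). Adh1 read -0.79, 0.07, -0.21, -0.81 and -0.18 in XY-Sry and 0.25, 0.93, 0.26, 0.35 and 1.15 in XX, with XX 6 and XX 2 highest. Its difference was -0.97 ± 0.20 (SE), limma adjusted p 0.0315, and -0.67 (adjusted p 0.219) without those arrays; the call was lost without any 1 of XY-Sry 19, 20 or 5, XX 6 or XX 2 (adjusted p up to 0.116).

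For cholesterol synthesis, XX 6 and XX 2 stood apart from the other livers. Of 14 cholesterol synthesis genes 1 was lower, Fdft1 (squalene synthase), and the median was -0.47. These 14 genes had a mean log2 ratio of 1.42 in XX 6 and 0.72 in XX 2, and from -0.50 to -0.21 in the other 3 XX livers, against -0.47 to -0.01 in XY-Sry. Without XX 2 and XX 6 the median turned to 0.15. Fdft1 read -0.48, -0.39, -0.17, -0.81 and -0.57 in XY-Sry and 0.25, 1.89, 0.08, 0.16 and 0.99 in XX. It was higher in every XX liver than in any XY-Sry liver, with a difference of -1.16 ± 0.26 (SE), limma adjusted p 0.0493, and -0.65 (adjusted p 0.156) without XX 2 and XX 6. Its call was lost without any 1 XY-Sry array, XX 6 or XX 2 (adjusted p up to 0.137).

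For fatty acid oxidation and ketogenesis the same arrays lay on the other side. None of 29 genes was called and the median was 0.27; without XX 2 and XX 6 the median turned to -0.21 and 1 gene was called. Their mean log2 ratio was -1.09 in XX 6 and -0.69 in XX 2, and 0.11 to 0.21 in the other XX livers, against -0.06 to 0.14 in XY-Sry. Acot1, a fatty acyl-CoA thioesterase and target of the receptor PPAR-alpha, read 0.05, -3.27, -0.04, 0.20 and -1.71 in XX, with XX 6 and XX 2 far below the rest. Outside the 10 arrays, XY- 3 was also low, with a mean of -0.66 over the fatty acid oxidation genes. Its mean over the cholesterol synthesis genes was 0.13, below XX 6 and XX 2. The arrays of XX 2 and XY- 3 correlated at 0.676 over autosomal genes, above every pair within XX (at most 0.33). They were not the only such pair across groups, since XX Sry 9 and XY-Sry 5 correlated at 0.764. What set XX 6, XX 2 and XY- 3 apart was not tested.

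In fatty acid and triglyceride synthesis, 2 of 26 genes were called, Lpin1 higher and Acss2 lower, with a median of -0.04. Acss2, which makes acetyl-CoA from acetate, differed by -0.76 ± 0.16 (SE), limma adjusted p 0.0372, and its call was lost without any 1 of XY-Sry 19, 27, 20 or 14, XX 29 or XX 2 (adjusted p up to 0.128). Lpin2, a relative of Lpin1, differed by 0.92 ± 0.32 (SE) without overlap of the groups, and its limma adjusted p of 0.247 missed the threshold. Among 29 genes of bile acid synthesis and transport, only Slc51b, a subunit of the basolateral bile acid exporter, was called, with a difference of -0.82 ± 0.19 (SE), limma adjusted p 0.0493, and the list median was 0.06. Slc51b lost its call in 9 of the 10 fits that left out 1 array, all but the fit without XX 29, with an adjusted p of up to 0.151.

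None of 23 genes of lipoproteins and lipases, 33 of gluconeogenesis and fasting, or 18 of glycine, serine and one-carbon metabolism was called, and their medians were -0.05, 0.04 and -0.01. Mttp, which loads triglyceride onto apolipoprotein B, differed by 0.50 ± 0.14 (SE), limma adjusted p 0.112. Slc37a4, the glucose 6-phosphate transporter, differed by 0.50 ± 0.12 (SE), limma adjusted p 0.0846, and the coactivator Ppargc1a by 1.02 ± 0.31 (SE), limma adjusted p 0.162. At an unadjusted p under 0.05 lay 8 of the 33 gluconeogenesis genes, 6 higher and 2 lower, beside 1315 of all autosomal genes (12.4%), 526 higher (4.96%) and 789 lower (7.43%).

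Some T cell and natural killer cell markers were lower in XY-Sry. Of 20 measured, Il2rb, Cd3g, Cd2, Cd3d and Klrb1c were called lower and none higher, beside 0.612% of all autosomal genes called lower. The list's median was -0.13, with 6 markers above 0 and 14 below. Of all 10614 autosomal genes 4830 lay below 0. The mean log2 ratio over the 20 markers was -0.27, -0.22, -0.27, -0.31 and -0.14 in XY-Sry and 0.05, 0.37, 0.14, 0.11 and 0.14 in XX. XX 6 was highest and XY-Sry 14 was the highest of its group, and the groups did not overlap. In whole liver, fewer lymphocytes and less of these transcripts per cell cannot be told apart. Ratios to a pool give no level, so whether a marker was present at all was not measured. Without XX 2 and XX 6, 2 of the 20 markers were called.

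Il2rb, the interleukin receptor subunit that T cells and natural killer cells share, read -1.21, -1.30, -1.12, -1.25 and -0.67 in XY-Sry and 0.51, 0.95, 0.87, 0.68 and 0.82 in XX. XX livers lay close together and XY-Sry 14 was the high XY-Sry liver. The difference was -1.87 ± 0.23 (SE), limma adjusted p 0.00104. Cd2, an adhesion receptor of both cell types, read -0.98, -0.42, -0.98, -1.44 and -0.62 in XY-Sry and 0.60, 0.83, 0.56, 0.62 and 0.61 in XX, with XX 6 the highest. Its difference was -1.53 ± 0.25 (SE), limma adjusted p 0.00644. Cd3g, a chain of the T cell receptor complex, read -0.99, -0.63, -0.71, -0.70 and -0.55 in XY-Sry and 0.44, 0.89, 0.55, 0.41 and 0.28 in XX. No liver of Cd2 or Cd3g overlapped the other group. The difference of Cd3g was -1.23 ± 0.19 (SE), limma adjusted p 0.00509.

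Cd3d and Klrb1c (NK1.1) had smaller differences, -0.41 and -0.67. Their calls were lost in 9 and 8 of the 10 fits that left out 1 array, with adjusted p-values of up to 0.106 and 0.12 (both without XY-Sry 19). Other T cell markers were not called: Cd3e differed by -0.03, Cd4 by 0.14, Cd8a by -0.12 and Thy1 by 0.02. Klrd1 and Ccl5 differed by -0.91 and -1.10 with limma adjusted p-values of 0.18 and 0.25.

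Genes known from lymphocytes were also called outside the list. Trav9d-3, a variable segment of the T cell receptor alpha chain, read -1.34, -1.42, -1.30, -1.11 and -1.05 in XY-Sry and 0.27, 1.01, 0.80, 0.55 and 0.95 in XX, a difference of -1.96 ± 0.25 (SE). Tbx21 (T-bet), the transcription factor of natural killer and type 1 helper cells, read -0.98, -0.58, -0.63, -0.73 and -0.53 in XY-Sry and 0.42, 0.41, 0.19, 0.90 and 0.70 in XX, a difference of -1.21 ± 0.22 (SE). Neither gene's groups overlapped, and limma adjusted p-values were 0.00118 and 0.0114. Further called genes of this kind were singled out after their values were seen. The death ligand Fasl differed by -0.98 ± 0.15 (SE), the kinase Txk by -1.06 ± 0.18 (SE), Ptprcap by -0.96 ± 0.15 (SE), the chemokine receptor Cxcr6 by -0.95 ± 0.20 (SE) and the kinase Zap70 by -0.48 ± 0.11 (SE). Fasl, Txk and Ptprcap were called in all 10 fits that left out 1 array, Zap70 only in the one without XX 6 (adjusted p elsewhere up to 0.133) and Cxcr6 in none (up to 0.115).

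Interferon-induced genes had 3 calls. Of 44 measured, Cxcl9, Gbp2b and Psmb9 were called lower and none higher, beside 0.612% of all autosomal genes called lower. A difference below 0 was found in 40 of the 44, and in 4830 of all 10614 autosomal genes. The median was -0.36 against 0.01 for all autosomal genes. Without XX 2 and XX 6 the median was -0.23 and none was called. The mean over the 44 genes was -0.34, -0.08, -0.52, -0.32 and -0.34 in XY-Sry and -0.06, 0.98, 0.11, 0.04 and -0.11 in XX. XX 6 stood far above the rest, and XY-Sry 27 overlapped XX 2. The mean over the lymphocyte markers was also lower in XY-Sry, and XX 6 was again the highest liver. The order within XX was not the same. XX 2 was the lowest XX liver for the interferon-induced genes, but its lymphocyte marker mean of 0.14 lay above that of XX 29 (0.05). Whether both lists varied together from liver to liver was not tested, nor was the part of lymphocytes in the result.

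Cxcl9, a chemokine that draws activated T cells, read -1.74, -1.34, -2.002, -1.60 and -1.64 in XY-Sry and -0.08, 0.91, 0.16, 0.42 and 0.48 in XX. All XY-Sry livers were at -1.34 or below and all XX livers at -0.08 or above. The difference was -2.04 ± 0.43 (SE), or 4.12-fold lower, limma adjusted p 0.0365. Gbp2b, a guanylate-binding GTPase, read -1.50, -1.35, -2.01, -1.39 and -0.77 in XY-Sry and 0.19, 1.41, 0.22, -0.01 and 0.19 in XX, with XX 6 high. Its difference was -1.80 ± 0.39 (SE), limma adjusted p 0.0423. Both calls were lost in 9 of the 10 fits that left out 1 array, all but the one without XX 29 for Cxcl9 and without XY-Sry 14 for Gbp2b, with adjusted p-values of up to 0.109 and 0.122 (both without XY-Sry 19).

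Antigen presentation genes, some of which are also on the interferon list, had 1 call. Of 23 measured, Psmb9 was called lower and none higher, and 20 lay below 0, beside 4830 of all 10614 autosomal genes. The median was -0.34, or -0.35 without XX 2 and XX 6, where none was called. Psmb9, a catalytic subunit of the immunoproteasome, read -0.55, -0.53, -0.44, -1.26 and -0.68 in XY-Sry and 0.22, 1.14, 0.42, 0.23 and 0.35 in XX. XY-Sry 5 was the low and XX 6 the high liver, and the groups did not overlap. Its difference was -1.17 ± 0.21 (SE), limma adjusted p 0.013, and -0.98 (adjusted p 0.103) without XX 2 and XX 6. The other immunoproteasome subunits Psmb8 and Psmb10 differed by -0.81 ± 0.21 (SE) and -0.68 ± 0.18 (SE), limma adjusted p 0.0945 and 0.107. The class II genes H2-Aa and H2-Eb1 differed by -0.97 and -1.36, both with a limma adjusted p of 0.14.

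Kupffer cell and macrophage markers had no call. Of 21 measured, 8 were below 0 at an unadjusted p under 0.05, beside 7.43% of all autosomal genes, and the median was -0.54, or -0.50 without XX 2 and XX 6. Their mean was -0.41, -0.62, -0.59, -0.60 and 0.36 in XY-Sry and -0.10, 0.55, 0.16, 0.03 and -0.07 in XX. XY-Sry 19, 27, 20 and 5 lay below every XX liver, and XY-Sry 14 lay above all XX livers but XX 6. Clec4f, the defining Kupffer cell lectin, differed by -0.75 ± 0.24 (SE), limma adjusted p 0.187, and the complement gene C1qb by -0.50 ± 0.17 (SE), limma adjusted p 0.229.

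**Figure D3:**
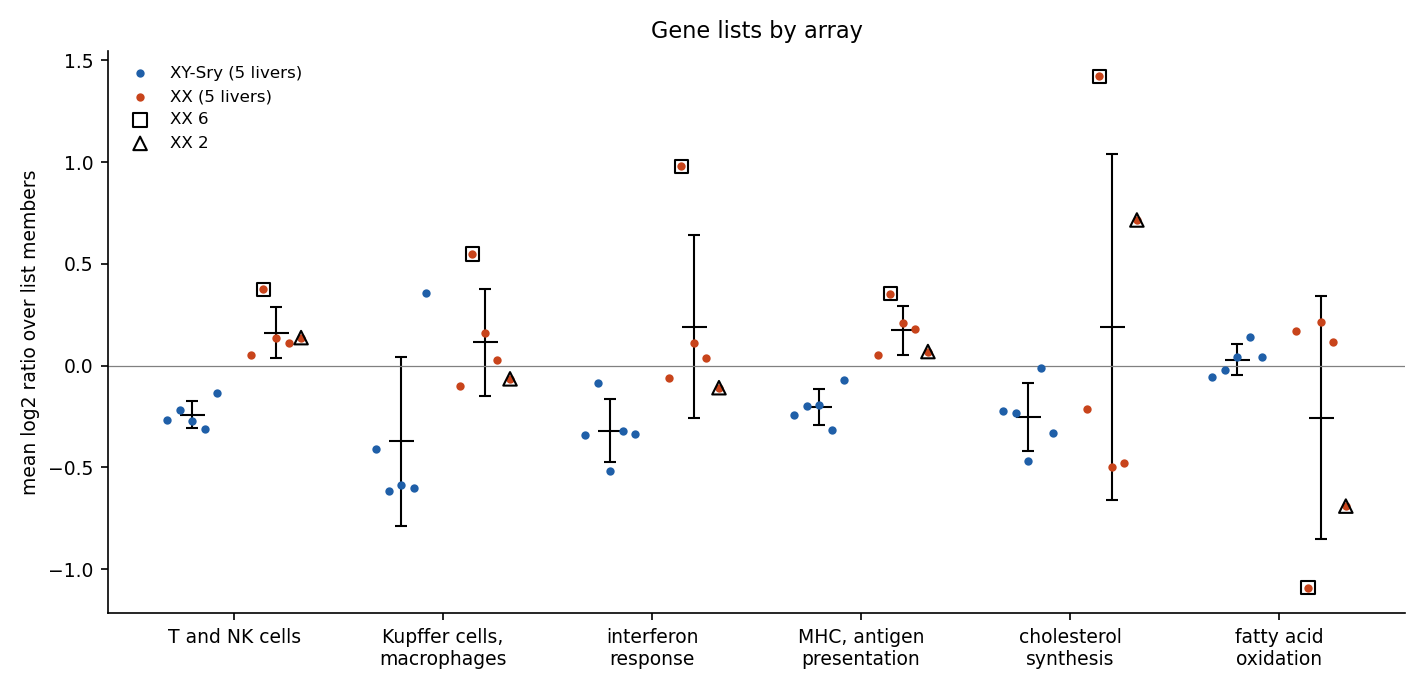
Mean log2 ratio of liver to pool over the measured members of 6 gene lists, for each of the 5 XY-Sry and 5 XX livers, with group mean and SD as bars. The XY-Sry and XX points are separate for the T and natural killer cell markers and for antigen presentation. Each mean includes the called members of its list. XX 6 (square) and XX 2 (triangle) lie far from the other XX livers for cholesterol synthesis and fatty acid oxidation.

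Markers of other cells gave 1 call. Muc1, an epithelial mucin on the list of 6 measured cholangiocyte markers, differed by -0.79 ± 0.18 (SE), limma adjusted p 0.0493, and kept its call in the fits without XX 29 or XX 21 but not in the other 8 that left out 1 array (adjusted p up to 0.131). None was called among 8 B cell, 10 neutrophil, 12 stellate cell and fibroblast, 14 sinusoidal endothelial, 8 erythroid, 5 adipocyte, 5 pancreatic acinar, 13 pericentral and 9 periportal hepatocyte markers. The mean over the 10 neutrophil markers nevertheless did not overlap, from -1.30 to -1.05 in XY-Sry and from -1.02 to -0.27 in XX, where XX 6 was highest. The groups nearly touched, with XY-Sry 19 at -1.05 and XX 29 at -1.02. The spread used in the test included XY- 12, whose neutrophil mean was 1.97 beside -0.94 to -0.88 in the other XY- livers. Calls without XY- 12 are not given for this list. Of these markers 8 lay below 0, beside 4830 of all 10614 autosomal genes, and 1 reached an unadjusted p under 0.05, beside 12.4%. The list median was -0.23, or -0.08 without XX 2 and XX 6. The labelled tissue was checked with 11 hepatocyte markers: their mean ran from -0.12 to 0.18 in XY-Sry and from -0.09 to 0.05 in XX, with a median difference of 0.02 and none called.

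A further 10 lower genes, on none of the lists and singled out after their values were seen, were called in every fit that left out 1 array. Plaat3, a phospholipase A and acyltransferase, read -0.36, -0.75, -0.29, -0.61 and -0.45 in XY-Sry and 0.15, 0.61, 0.51, 0.43 and 0.33 in XX. No liver overlapped, and the difference was -0.90 ± 0.13 (SE), limma adjusted p 0.00272. Galnt10, which starts O-glycan chains, differed by -0.67 ± 0.09 (SE), limma adjusted p 0.00157, and the receptor-like Mmd2 by -1.13 ± 0.17 (SE), limma adjusted p 0.00371. The methyltransferase Smyd3 (-0.70), the desmosome protein Pkp3 (-0.66), the cation-chloride cotransporter relative Slc12a8 (-0.54) and Endod1 (-0.51) were also lower. Pea15a (-0.47), the glycerol phosphate acyltransferase Gpat2 (-0.37) and lysosomal beta-galactosidase Glb1 (-0.35) differed less. The 2 probes of Gpat2 gave -0.79 and 0.04, so they disagree.

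The study's design also holds the gonadal contrast with the sex chromosomes swapped, XX Sry minus XY-, which shares no array with XY-Sry and XX. In that pairing 41 autosomal genes were called (0.386%), 15 higher (0.141%) and 26 lower (0.245%). That count was 84 without the array labelled XY- 30 and lower without XX Sry 38 (9), 32 (11), 18 (12), 31 (12) or 9 (25) or without XY- 3 (20) or 22 (27). Without XY- 12, the array of widest spread in the series (SD 0.375), the count was 55, and 31 of the 41 were kept. It was 196 with arrays scaled to a common spread, where XY-Sry minus XX gave 85, so which pairing had more calls depended on the scaling. It was also 196 with quantile normalization, 201 with array weights and 11 in a fit to its own arrays alone, against 135, 122 and 69 for XY-Sry minus XX. Of the 78 genes called in XY-Sry minus XX, 77 had the same sign there, 58 also had an unadjusted p under 0.05 (13.7% of all autosomal genes did), and 22 were called, which is 28.2% of the 78 and 53.7% of the 41. Over all autosomal genes 60.3% had the same sign in both pairings, with a Pearson correlation of 0.616 across genes, which are not independent replicates. The exception among the 78 was Pdia5, a protein disulfide isomerase, at -0.47 and 0.0011. The differences were mostly smaller in the swapped pairing: 67 of the 78 had a smaller size, with a median of 0.389 against 0.682, where the 78 were chosen for passing in the first pairing.

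The 4 sulfotransferases and several lymphocyte genes were called in both pairings. In XX Sry minus XY-, C730007P19Rik differed by -4.45, Sult2a1 by -3.89, Sult3a1 by -1.83 and Sult5a1 by -0.88. Il2rb differed by -1.52, Cd2 by -1.36, Cd3g by -1.001 and Trav9d-3 by -1.65, and Cyp2d9 and Nox4 were higher by 1.93 and 0.93. All of these passed with limma adjusted p-values of at most 0.0349. The mean over the T cell and natural killer cell markers was 0.67 in XY- 12, beside -0.03 to 0.10 in the other XY- livers. Differences of the lymphocyte genes without XY- 12 are not given here. Lpin1 was higher by 1.44 and A1bg differed by -2.01, with limma adjusted p-values of 0.0596 and 0.12. Genes near 0 there were Lor at 0.01, Penk at 0.01 and Plaat3 at -0.16.

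**Figure D4:**
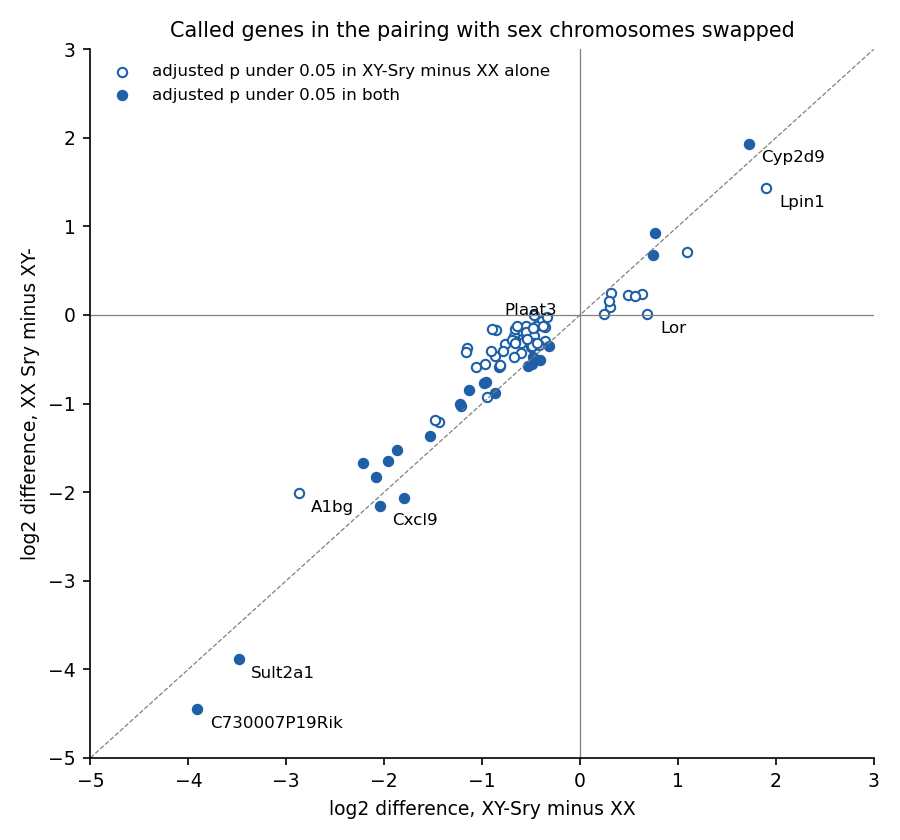
Log2 difference in XX Sry minus XY- against that in XY-Sry minus XX for the 78 genes called in the latter; filled points are the 22 called in both, open points those called in XY-Sry minus XX alone, and the dashed line marks equal differences. Points have the same sign on both axes except Pdia5 near 0, and most lie nearer to 0 on the vertical axis than on the horizontal one.

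In the test of the difference between the pairings 1 autosomal gene (0.00942%) was called, Gcsh, the hydrogen carrier protein of the glycine cleavage system; 505 genes (4.76%) did at an unadjusted p under 0.05. Gcsh read 0.17, 0.07, 0.55, -0.02 and 0.15 in XY-Sry and -0.57, -0.43, -0.29, -0.18 and -0.34 in XX, -0.36, -0.45, -0.44, -0.56 and -0.59 in XX Sry animals 38, 18, 9, 31 and 32, and 0.09, -0.26, 0.54, 0.67 and 0.36 in XY- animals 12, 30, 24, 3 and 22. Both groups labelled with a Y chromosome had a higher mean than both without one, and the array labelled XY- 30, which lacks the Y signal, lay with the XX livers. XY-Sry minus XX was 0.55 ± 0.14 (SE), limma adjusted p 0.092 and not called, and XX Sry minus XY- was -0.76 ± 0.14 (SE), limma adjusted p 0.029. The difference of the pairings was 1.30 ± 0.20 (SE), limma adjusted p 0.0197. Without XY- 30 it was 1.44 with an adjusted p of 0.000186, and leaving out 1 array at a time gave 1.21 to 1.44 and lost the call without XX Sry 18, XY-Sry 14, XX 29, XX 6, XY- 24 or XY- 22 (adjusted p up to 0.0619). Impg1, a matrix proteoglycan gene known from retina, came next with 0.83 ± 0.15 (SE), limma adjusted p 0.0654, and was not called.

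The step from XX to XY-Sry can also be split through either intermediate genotype, in comparisons that share arrays with XY-Sry minus XX and so do not add independent support. XX Sry minus XX called 83 autosomal genes (0.782%) and XY-Sry minus XX Sry called 0 by limma (212 genes, 2%, at an unadjusted p under 0.05). XY- minus XX called 0 (630 genes, 5.94%, unadjusted) and XY-Sry minus XY- called 22 (0.207%). Sult2a1 differed by -3.65 in XX Sry minus XX, by 0.17 in XY-Sry minus XX Sry, by 0.23 in XY- minus XX and by -3.72 in XY-Sry minus XY-. Lpin1 differed by 1.89, 0.01, 0.46 and 1.45 in the same order. Plaat3 was divided more evenly, at -0.43, -0.47, -0.27 and -0.63, and none of its 4 steps passed. Galnt10 differed by -0.47, -0.20, -0.31 and -0.35, and its first step was called (limma adjusted p 0.0185).

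**Figure D5:**
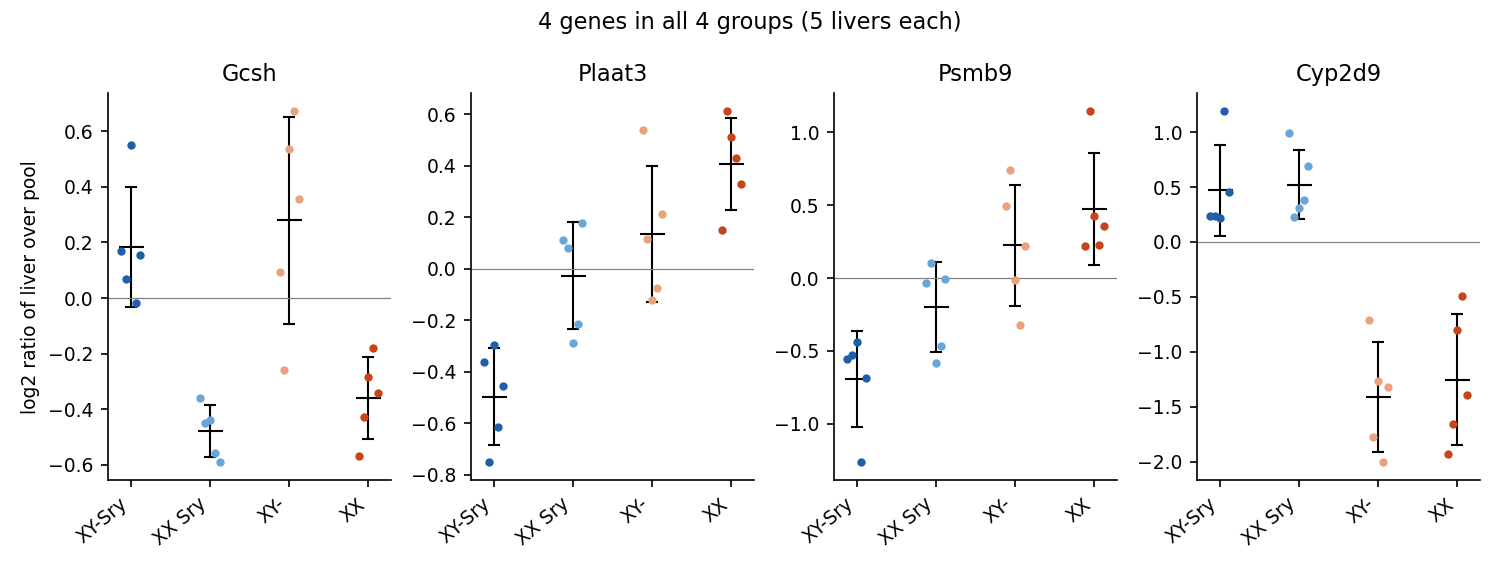
Log2 ratio of liver to pool in all 4 groups (5 livers each, mean and SD as bars) for Gcsh, Plaat3, Psmb9 and Cyp2d9. Gcsh is higher in both groups labelled with a Y chromosome, Cyp2d9 is higher in both groups with the transgene, and Plaat3 and Psmb9 have the lowest mean in XY-Sry and the highest in XX.

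The 78 genes were spread over all 19 autosomes. The called share ran from 0.194% on chromosome 10 to 1.39% on chromosome 15, where A1bg, Cyp2d9 and Il2rb lie. Chromosome 3, to which other work on these mice mapped the Sry transgene, held 7 called genes of 543 (1.29%), against 0.735% over all autosomes. They were Cd2, Gbp2b, Hsd3b2, Adh1, Manba, Muc1 and Lor.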

How the data were processed

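RNA of whole liver was hybridised with 2 dyes, each liver in Cy5 and a common pool in Cy3. Per the labels' protocols, RNA was prepared with Qiagen RNeasy and DNAse and labelled with aminoallyl chemistry based on the MessageAmp II kit. The authors deposited 1 log10 ratio per probe and array; the scanner and its settings, the background correction and the dye normalization are not given in the sources used here. Their base and direction were judged from the values, since no source used here states them: values end at a size of 2 and Y-linked genes are low in XX. They were multiplied by log2(10), and no other normalization was applied.

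Of 23574 probes, 13713 are listed in the platform's annotation. Symbols were updated through Entrez IDs (12662 probes) and RefSeq accessions (4 probes), and the platform symbol was kept for the rest (220 placed by symbol, 94 by an older name, 685 unplaced; 48 probes had several genes). Probes of 1 symbol were averaged (1211 autosomal genes), giving 21556 features, of which 10614 were autosomal genes, 401 X-linked, 8 Y-linked and 623 named but unplaced. Probes without a single gene name were tested but not counted.

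The fit used limma 3.58.1 (R 4.3.3) on the 20 arrays together (lmFit, eBayes, 4 group means, 16 residual degrees of freedom), after a check on simulated data. The Benjamini-Hochberg adjustment covered the 21556 features, and genes under an adjusted p of 0.05 were called. No filter on dim spots was possible, since ratios hold no intensity. Samples were grouped by their titles, and animal numbers name separate mice; 5 arrays per group limit the precision.

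Genes named were the 15 with the largest difference in each direction among those called (13 were called higher), up to 5 with the smallest p for the difference of the pairings, up to 4 with the smallest p in each list described, and the defining sex-biased genes. The genes compared and the gene lists were chosen with earlier results of these data known. Alternatives covered the arrays fitted, centring, scaling, quantile normalization, array weights, a robust fit with trend, probe handling, leaving out each array and the threshold; leaving out the 4 widest arrays, and the lists without XX 2 and XX 6, were chosen after seeing the data.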

Additional observations from a re-analysis of the deposited data

Results flagged for a closer look

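Among 182 groups of 5 livers (91 named genes in XY-Sry and in XX), 23 held a single liver whose gap to its nearest neighbour was more than 0.71 of the group's range, where chance gives about 1 in 20. Values are log2 ratios of liver to pool. Of the called genes, XY-Sry 5 was high for Cyp2d9 at 1.19, XY-Sry 27 was low for St3gal5 at -0.10 and for Dct at -1.92, and XY-Sry 14 was high for Sult2a1 at -1.90 and for Il2rb at -0.67. XX 29 was high for Sult3a1 at 1.66. XX 6 was high for Gbp2b at 1.41, Cd2 at 0.83 and Psmb9 at 1.14 and low for Lor at -0.81.

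Genes that were not called gave the other 13. XX 2 was high for Hsd17b2 at 0.56, for the cholesterol hydroxylase Cyp46a1 at 0.10, for the sarcosine dehydrogenase Sardh at 0.73 and for Hsd3b5 at 1.07, and XX 6 was high for lipoprotein lipase (Lpl) at 1.36 and for Cyp2b9 at 0.54. XX 21 was low for Cyp7b1 at -0.61. XY-Sry 5 was low for Cux2 at -0.56 and high for Cyp2b9 at 0.245 and Cyp2b13 at -0.0083. XY-Sry 27 was low for Slc37a4 at -0.37. XY-Sry 14 was high for the macrophage genes Fcgr1 at 0.0018 and Tyrobp at 0.28.

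The difference between XY-Sry and XX depended on the pairing for Gcsh, where the 2 pairings differed by 1.30 (limma adjusted p 0.0197 for the difference between them).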

How the results depend on the processing

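No paired analysis was possible because the animal numbers of the groups compared are all different. The 78 genes called in XY-Sry minus XX became 135 with quantile normalization, 122 with array weights, 30 without XX 2 and XX 6, 134 without the 4 arrays of widest spread (chosen after seeing the data), 138 at an adjusted p under 0.1 and 26 at one under 0.01. Between 69 and 93 genes were called in the other alternatives that kept all 10 arrays, and leaving out 1 array at a time gave 33 to 99. Of the 78, 75 were also called with quantile normalization, 74 with array weights and 39 when only the 10 arrays were fitted.

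The 41 genes of XX Sry minus XY- became 11 when only their own arrays were fitted, 196 with arrays scaled to a common spread, 196 with quantile normalization, 201 with array weights, 84 without XY- 30, 72 without XX 2 and XX 6, 62 without the 4 widest arrays, 117 at an adjusted p under 0.1 and 8 at one under 0.01; leaving out 1 array at a time gave 9 to 84. The single gene of the pairing difference became 2 with scaled arrays, array weights, without XY- 30 and at an adjusted p under 0.1, and 0 with the robust fit, without XX 2 and XX 6, without the 4 widest arrays and at an adjusted p under 0.01; leaving out 1 array at a time gave 0 to 2, and the fit on the arrays of 1 pairing could not give it. The cause of these shifts was not tested. No named gene turned direction while called.

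Ratios to a pool give no level and no depth, so a transcript near background cannot be told from one with no difference. Every liver was in the same dye.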

Other observations

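Some of the remaining called genes, singled out after their values were seen, encode matrix proteins; how many matrix genes were measured was not counted, and no statement about matrix genes as a group is made. Lama1, a laminin chain of basement membranes, differed by -0.82 (limma adjusted p 0.0169), Col14a1 by -0.67, Col5a2 by -0.56, the procollagen enhancer Pcolce by -0.50 and the gelatinase Mmp2 by -0.42. The limma adjusted p-values of the latter 4 ran from 0.0302 to 0.0429, and Lama1 was called in 8 of the 10 fits that left out 1 array (not without XY-Sry 19 or XX 2, adjusted p up to 0.0731), Mmp2 in 4, Col14a1 and Pcolce in 3 and Col5a2 in 1. The list of 12 stellate cell and fibroblast markers held none of the calls: 5 of its members were below 0 at an unadjusted p under 0.05, beside 7.43% of all autosomal genes, and its median was -0.19. The part of these cells in the result was not tested.

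Other called genes lower in XY-Sry, also singled out after their values were seen, included the ATP synthase inhibitor Atpif1 (-0.61), the cyclin Ccnk (-0.86), the complement inhibitor Cd59a (-0.55), the lysosomal mannosidase Manba (-0.48), the kinesin Kif3a (-0.47) and the Polycomb partner Jarid2 (-0.33). Their limma adjusted p-values ran from 0.0268 for Jarid2 to 0.0391 for Ccnk. Their calls depended on single arrays: of the 10 fits that left out 1 array, 5 lost the call of Atpif1, Manba and Jarid2, 7 that of Ccnk and Kif3a and 8 that of Cd59a, with adjusted p-values of up to 0.141. The 2 probes of Gmds, which starts GDP-fucose synthesis, gave -0.71 and 0.00.

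General programmes of the liver gave no call. None of 19 circadian clock genes, 26 immediate early genes, 28 heat shock and endoplasmic reticulum stress genes, 34 cell cycle genes or 23 acute phase genes was called, and their medians were 0.03, 0.06, -0.03, -0.05 and -0.003. No immediate early gene reached an unadjusted p under 0.05, while 1 clock gene, 4 stress genes, 6 cell cycle genes and 1 acute phase gene did, beside 12.4% of all autosomal genes. Single livers stood apart in the mean over the acute phase genes. XY-Sry 14 read 0.45, beside -0.47 to -0.26 in the other XY-Sry livers. XX 6 read 0.30, beside -0.40 to -0.12 in the other XX livers.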
